A study of Homo sapiens with 12 samples.

Results

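The 39 genes described here make, sense, desaturate and export sterols and fatty acids: 18 enzymes of sterol synthesis, 6 genes of sterol sensing, 3 enzymes that supply and build fatty acids, 7 desaturases and elongases, and 5 genes of sterol efflux and of the liver X receptors (LXR). They were found as the rows of the count table whose gene ID carries a listed symbol in GENCODE 29. All 39 were found among the 58051 rows, and all 39 were among the 14214 genes that passed the filter on low counts and were tested. Their median level with DMSO was 67.7 CPM, against 22.8 CPM over all tested genes. CPM are read counts scaled to the size of the library, with factors that correct for its composition (TMM).

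MV4-11 is a cell line from a human acute myeloid leukaemia, with a fused KMT2A gene and a FLT3 receptor activated by an internal duplication. The cells were exposed for 6 h to 200 nM of palbociclib, BSJ-03-123 or YKL-06-102, or to 0.1% DMSO as vehicle, with 3 libraries of polyadenylated RNA for each of the 4 groups. Palbociclib inhibits the kinase activity of CDK4 and CDK6, and the submitters name BSJ-03-123 and YKL-06-102 as conjugates specific for CDK6 in a study of its selective degradation. The cells are a single line at 1 time and 1 dose, and the labels do not say whether the 3 libraries of a group came from separate cultures. The p-values therefore measure the spread between libraries, which may be technical. In bulk RNA, fewer cells that express a gene and less RNA per cell cannot be told apart.

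Library totals ran from 18764307 to 25539858 counts. The myeloid genes of the line were present: FLT3 averaged 394 CPM, SPI1 315 CPM, LYZ 657.5 CPM and CD33 172 CPM with DMSO, while CD14 stayed below 1 CPM in every library. The 9 myeloid blast and monocyte markers summed to 1974 to 2009 CPM with DMSO, 2142 to 2175 CPM with palbociclib, 2109 to 2129.6 CPM with BSJ-03-123 and 2447 to 2474 CPM with YKL-06-102. All 4 lymphoid, 3 erythroid and 3 stromal markers lay below 1 CPM in every library, the erythroid genes and the epithelial gene EPCAM at 0 counts throughout, and KRT8 and KRT18 between 6.19 and 13.1 CPM. DMSO replicate 2 stood apart from the other DMSO libraries, with a chi-square per degree of freedom of 5.89 and 8.93 against them, while every other pair of replicates lay at or below 2.95, above what sampling alone gives. Counts of calls against DMSO are therefore also given without it.

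Cells build cholesterol from acetyl-CoA through mevalonate, farnesyl diphosphate, squalene and lanosterol, and build saturated fatty acids from malonyl-CoA, which desaturases and elongases then modify. When sterols are scarce in the endoplasmic reticulum, SCAP escorts the SREBP proteins to the Golgi, where they are cleaved into transcription factors that raise most of these genes, and INSIG proteins hold SCAP back when sterols are plentiful. When sterols are in excess, oxysterols activate LXR, which raises the exporters ABCA1 and ABCG1, the ubiquitin ligase MYLIP, and SREBF1 with some of its lipogenic targets.

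Per kilobase of exon, the highest level of the 39 with DMSO belonged to FASN, the fatty acid synthase, at 159 ± 5.90 CPM per kb (SD, n = 3). SCD, the stearoyl-CoA desaturase, followed at 106 ± 0.590, then ACLY, which makes cytosolic acetyl-CoA, at 99.5 ± 3.68, INSIG1 at 89.5 ± 1.77 and FDFT1, squalene synthase, at 84.4 ± 2.94 CPM per kb. At the bottom of the order lay the elongase ELOVL6 at 0.788 ± 0.0783 CPM per kb, the LXR-alpha gene NR1H3 at 0.945 ± 0.0335 and the exporter ABCG1 at 0.111 ± 0.0435. ABCG1 had 7 to 23 counts per library and was the only member with fewer than 10 counts in any library, so its levels carry the least weight. In the efflux and LXR list the highest level per length was that of NR1H2, the LXR-beta gene, at 28.4 ± 2.31 CPM per kb, well above NR1H3. Exon length here is the union of all annotated exons, so a gene with long unused exons reads low on this scale.

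**Figure D1:**
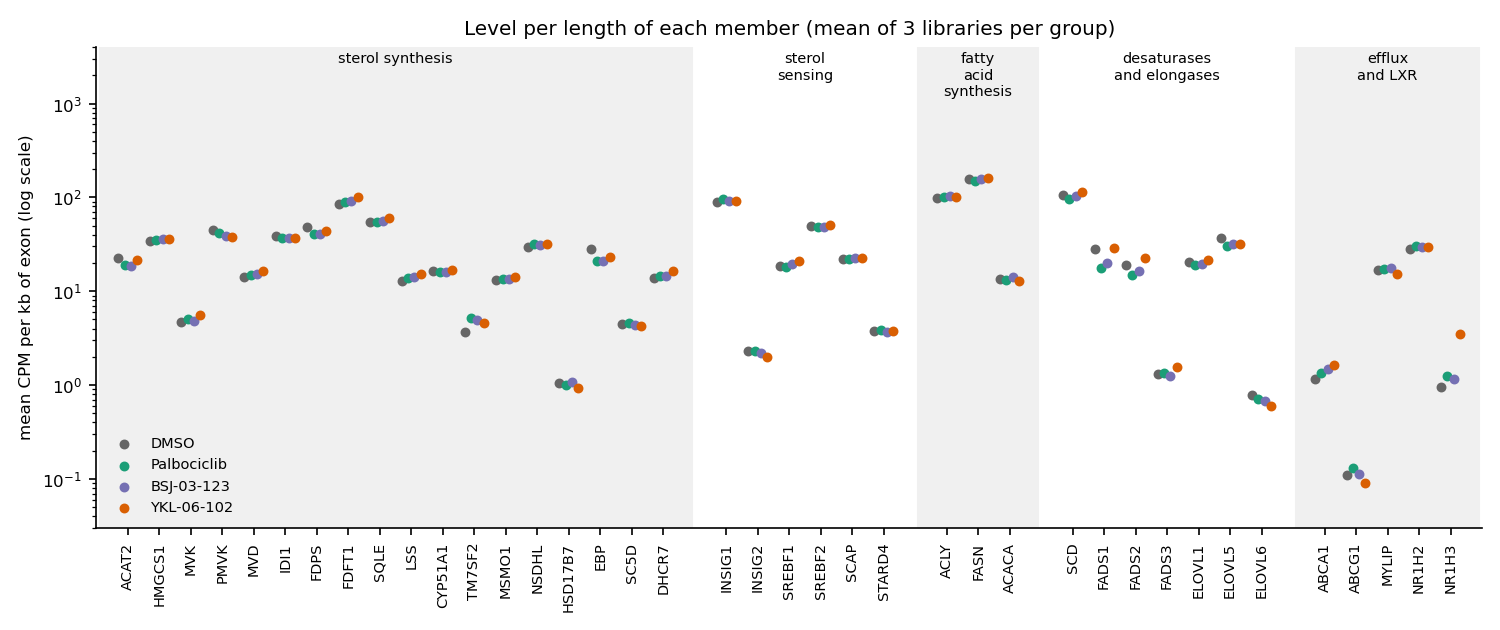
Level in CPM per kb of exon on a log axis for the 39 genes, grouped by role. Each point is the mean of 3 libraries with DMSO, palbociclib, BSJ-03-123 or YKL-06-102. With DMSO, levels run from 0.111 CPM per kb for ABCG1 to 159 CPM per kb for FASN.

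After 6 h the genes moved little, with a few exceptions. Palbociclib and BSJ-03-123 lowered the desaturases FADS1 and FADS2, the elongase ELOVL5 and the sterol enzymes EBP, ACAT2 and FDPS, and raised TM7SF2. YKL-06-102 also lowered ELOVL5, EBP and FDPS and raised TM7SF2. Unlike the other compounds, it left FADS1 near its DMSO level and raised FADS2 and SCD. It raised 8 of the 18 sterol enzymes by small amounts, TM7SF2 and FDFT1 among them, beside 15.6% of all tested genes higher. It also raised NR1H3 3.74-fold. FDFT1 and NR1H3 also rose with palbociclib and BSJ-03-123, by less. Of these calls, both of FDFT1 and that of NR1H3 with BSJ-03-123 were lost on leaving out single libraries. Here and below, a gene rose or fell where its Benjamini-Hochberg adjusted p over all tested genes was under 0.05 in edgeR's quasi-likelihood test. Fold changes are log2 values, given with their standard error. The 3 comparisons with DMSO share the DMSO libraries, so the values of the compounds are set side by side without measuring their likeness.

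With palbociclib, 4 of the 39 members rose and 9 fell, beside 33.3% of all tested genes called (15.6% higher and 17.6% lower), so the share of members called, 33.3%, was that of the background. With BSJ-03-123, 5 rose and 7 fell, 30.8% of members beside 28.1% of tested genes (12.4% higher and 15.7% lower). With YKL-06-102, 14 rose and 6 fell, 51.3% of members beside 36.9% of tested genes (15.6% higher and 21.3% lower). The median log2 fold change of the members was 0.012 with palbociclib, 0.0098 with BSJ-03-123 and 0.054 with YKL-06-102, beside 0.014, 0.0075 and -0.017 over all tested genes. Without DMSO replicate 2 the counts became 8 higher and 8 lower with palbociclib, 10 and 8 with BSJ-03-123, and 18 and 4 with YKL-06-102. Scaling by library totals in place of TMM factors gave 11 higher and 7 lower with palbociclib and 11 and 7 with BSJ-03-123, so the split between higher and lower depends on the scaling for these 2 compounds.

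**Figure D2:**
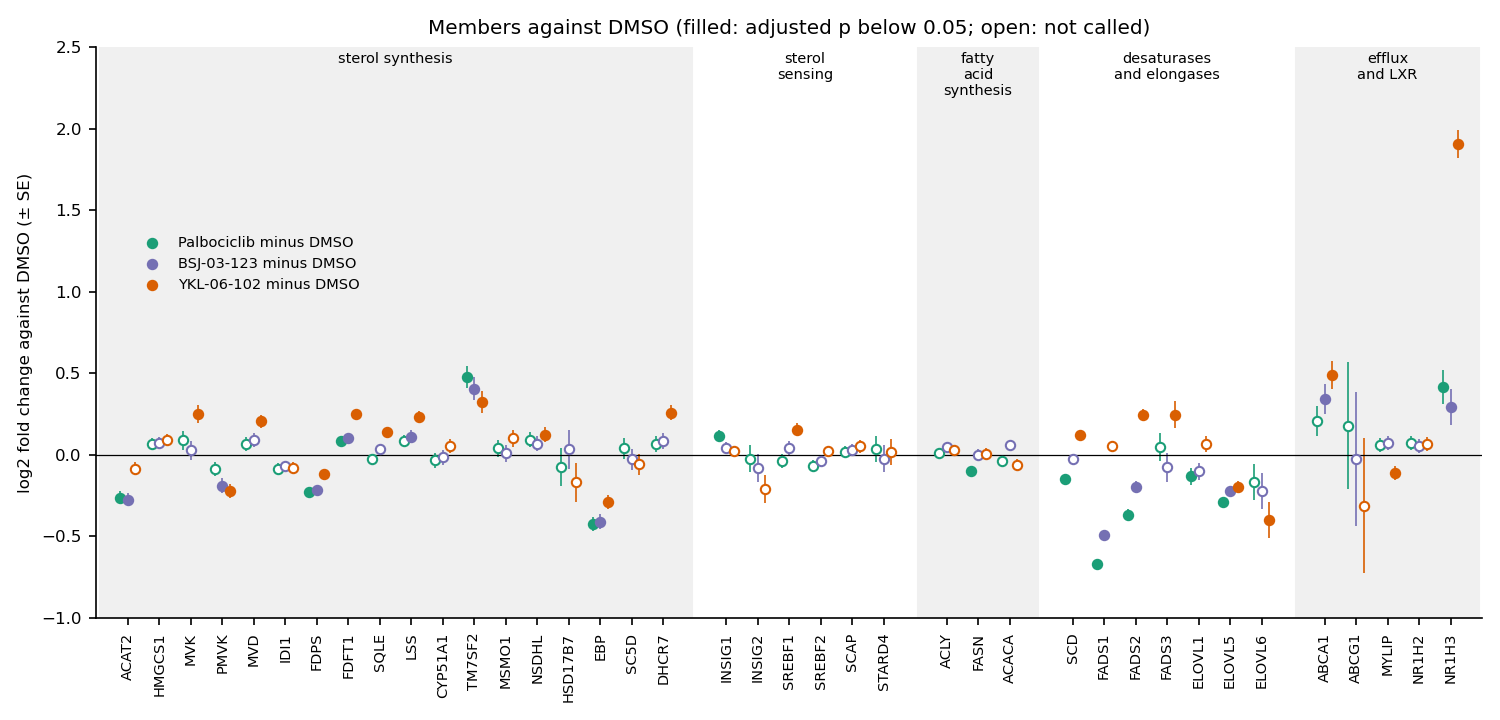
Log2 fold change against DMSO for the 39 members with palbociclib, BSJ-03-123 and YKL-06-102, with bars for the standard error, grouped by role. FADS1 lies farthest below 0 with palbociclib and BSJ-03-123, at -0.67 and -0.49, and NR1H3 farthest above 0 with YKL-06-102, at 1.90.

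In sterol synthesis, EBP, the sterol isomerase that also binds emopamil, fell with all 3 compounds. Its levels were 70.3, 67.6 and 64.7 CPM with DMSO, 50.2, 50.04 and 50.9 with palbociclib, 53.4, 51.3 and 48.1 with BSJ-03-123 and 56.7, 55.5 and 53.6 with YKL-06-102. Every treated library lay below every DMSO library, and the log2 fold changes were -0.42 ± 0.044, -0.41 ± 0.045 and -0.29 ± 0.044 in that order of compounds. TM7SF2, a sterol reductase of the same stretch of the pathway, moved the other way. It read 12.6, 12.8 and 12.2 CPM with DMSO, 16.5, 17.9 and 18.3 with palbociclib, 16.6, 17.0 and 16.3 with BSJ-03-123 and 15.3, 15.7 and 16.1 with YKL-06-102, again without overlap, and rose by 0.48 ± 0.067, 0.41 ± 0.069 and 0.32 ± 0.068. TM7SF2 shares 16 bases of exon with VPS51 on the same strand, whose log2 fold changes were 0.070, 0.12 and 0.11.

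The promoter of EBP is shown because this gene fell with every compound. It is taken from RefSeq (GRCh38.p14) as 250 bases before the start site to 50 after it, chrX:48521558-48521857, forward strand. Capitals mark the CCAAT box, here 3 times on the opposite strand as ATTGG.
EBP: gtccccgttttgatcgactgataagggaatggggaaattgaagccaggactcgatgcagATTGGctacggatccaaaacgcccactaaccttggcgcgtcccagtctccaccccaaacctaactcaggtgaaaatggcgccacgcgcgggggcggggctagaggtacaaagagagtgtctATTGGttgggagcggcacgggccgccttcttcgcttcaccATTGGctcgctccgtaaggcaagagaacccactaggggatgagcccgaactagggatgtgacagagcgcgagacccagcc

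FDPS, farnesyl diphosphate synthase, also fell with all 3 compounds. It read 176, 179.5 and 177 CPM with DMSO, 154, 151 and 150.1 with palbociclib, 155, 149 and 156 with BSJ-03-123 and 161, 167 and 164 with YKL-06-102, with log2 fold changes of -0.23 ± 0.032, -0.21 ± 0.032 and -0.12 ± 0.031. All treated libraries lay below the DMSO libraries, and those with YKL-06-102 lay between the DMSO level and that of the other compounds. ACAT2, the cytosolic acetoacetyl-CoA thiolase at the head of the pathway, read 101, 96.9 and 93.7 CPM with DMSO, 84.0, 78.7 and 80.8 with palbociclib, 82.0, 79.7 and 79.7 with BSJ-03-123 and 93.8, 93.3 and 88.3 with YKL-06-102. It fell by 0.26 ± 0.039 with palbociclib and by 0.27 ± 0.040 with BSJ-03-123 on the log2 scale, and with YKL-06-102 it was -0.084 ± 0.038, which did not pass the test (edgeR adjusted p = 0.0897). ACAT2 shares 397 bases of exon with TCP1 on the opposite strand, a chaperonin gene at 664.6 CPM with DMSO and log2 fold changes of -0.23, -0.21 and -0.22; the strand setting of the counting is not given in the sources used here, so reads of the pair may not be separated. PMVK, phosphomevalonate kinase, read 56.3, 57.1 and 57.6 CPM with DMSO, 53.0, 54.3 and 53.9 with palbociclib, 49.3, 48.1 and 52.6 with BSJ-03-123 and 50.1, 49.7 and 46.6 with YKL-06-102. Its log2 fold change was -0.085 ± 0.044 with palbociclib, which did not pass, and it fell by 0.19 ± 0.044 with BSJ-03-123 and by 0.22 ± 0.044 with YKL-06-102.

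The rises among sterol enzymes came mostly with YKL-06-102. FDFT1, which makes squalene, read 439, 455 and 424 CPM with DMSO, 472, 468 and 457 with palbociclib, 486, 466 and 463 with BSJ-03-123 and 529.6, 519.5 and 519.8 with YKL-06-102. Every YKL-06-102 library lay above all others, with a log2 fold change of 0.25 ± 0.031 against 0.084 ± 0.031 with palbociclib and 0.10 ± 0.031 with BSJ-03-123. SQLE, the squalene epoxidase and a rate-limiting enzyme of the later pathway, read 238, 236 and 237 CPM with DMSO, 235, 235 and 228 with palbociclib, 249, 248 and 233 with BSJ-03-123 and 267, 261 and 255 with YKL-06-102. It passed the test against DMSO with YKL-06-102, at 0.14 ± 0.032. LSS, lanosterol synthase, read 94.3, 97.6 and 90.3 CPM with DMSO, 101, 99.6 and 98.9 with palbociclib, 101, 98.1 and 106 with BSJ-03-123 and 109, 109 and 114 with YKL-06-102, and rose by 0.11 ± 0.038 with BSJ-03-123 and 0.23 ± 0.037 with YKL-06-102. The reductase DHCR7, which completes cholesterol from its dehydro precursor, read 55.3, 62.5 and 53.7 CPM with DMSO, 60.5, 61.5 and 58.0 with palbociclib, 60.4, 62.4 and 59.8 with BSJ-03-123 and 69.7, 66.3 and 69.8 with YKL-06-102. DMSO replicate 2 was the highest DMSO library, yet all 3 YKL-06-102 libraries lay above it, and the log2 fold change was 0.26 ± 0.047.

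The mevalonate enzymes MVK and MVD also rose with YKL-06-102. MVK, mevalonate kinase, read 31.5, 32.7 and 27.6 CPM with DMSO, 33.3, 32.9 and 31.9 with palbociclib, 32.9, 31.3 and 29.8 with BSJ-03-123 and 37.9, 34.9 and 36.7 with YKL-06-102, and rose by 0.25 ± 0.057 with YKL-06-102. MVK shares 306 bases of exon with MMAB on the opposite strand, whose log2 fold change with YKL-06-102 was 0.20. MMAB was also higher with YKL-06-102 than with palbociclib and BSJ-03-123, by 0.17 and 0.22, and the part of shared reads was not tested. MVD, which decarboxylates mevalonate diphosphate, read 67.2, 70.9 and 64.9 CPM with DMSO, 68.0, 73.2 and 72.2 with palbociclib, 71.2, 71.6 and 73.6 with BSJ-03-123 and 80.7, 75.5 and 78.3 with YKL-06-102, and rose by 0.20 ± 0.042. NSDHL, a sterol dehydrogenase of the demethylation steps, rose by 0.12 ± 0.047 with YKL-06-102, with its DMSO libraries at 57.3, 63.2 and 56.1 CPM and its YKL-06-102 libraries at 66.2, 65.2 and 61.6 CPM. In this gene DMSO replicate 2 lay within the YKL-06-102 range.

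The remaining 6 enzymes passed in no comparison of the study. HMGCS1, the HMG-CoA synthase and a classical SREBP target, read 162, 153 and 165 CPM with DMSO, 173, 170.3 and 158 with palbociclib, 166, 168 and 171 with BSJ-03-123 and 170.1, 176 and 166 with YKL-06-102. Its groups differed by little more than the spread of the DMSO libraries, and its log2 fold changes were 0.064 ± 0.037, 0.071 ± 0.037 and 0.091 ± 0.037, with 95% intervals of -0.012 to 0.14, -0.0047 to 0.15 and 0.016 to 0.17. With YKL-06-102 it passed under 5 of the 7 other fits, including DESeq2 and library totals, at 0.10 to 0.13, and on leaving out DMSO replicate 3 or YKL-06-102 replicate 1 or 3, at 0.11 to 0.13. IDI1, which isomerizes isopentenyl diphosphate, gave -0.084, -0.069 and -0.079. For the lanosterol demethylase CYP51A1 the values were -0.034, -0.015 and 0.054, and for the methylsterol oxidase MSMO1 they were 0.040, 0.0098 and 0.10. SC5D, a sterol desaturase, gave 0.041, -0.027 and -0.058, and HSD17B7, the ketosteroid reductase of the pathway, at 4.05 to 5.77 CPM, gave -0.074, 0.033 and -0.17. FDPS, CYP51A1 and HSD17B7 have pseudogene copies, so their counts are uncertain where reads match both.

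Over the 18 sterol enzymes, 2 rose and 3 fell with palbociclib, 3 rose and 4 fell with BSJ-03-123, and 8 rose and 3 fell with YKL-06-102. These are 27.8%, 38.9% and 61.1% of the list called, beside 33.3%, 28.1% and 36.9% of all tested genes. The median log2 fold change was 0.040, 0.030 and 0.10. The 95% interval lay within 1.25-fold either way for 15 of 18 with palbociclib and with BSJ-03-123 and for 13 of 18 with YKL-06-102.

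Among the genes that sense sterols, few moved. INSIG1, which retains SCAP when sterols are plentiful and is itself an SREBP target, read 319.8, 327 and 333 CPM with DMSO, 342, 343 and 379 with palbociclib, 333, 340.4 and 336 with BSJ-03-123 and 338, 326 and 330.3 with YKL-06-102. Palbociclib replicate 3 was the highest library of the 12 for this gene. INSIG1 rose by 0.12 ± 0.034 with palbociclib, and the values with BSJ-03-123 and YKL-06-102 were 0.043 ± 0.035 and 0.021 ± 0.034. SREBF1, the gene of the SREBP that favours fatty acid synthesis and a target of LXR, read 149, 163 and 139 CPM with DMSO, 146, 147 and 148 with palbociclib, 153, 154 and 159 with BSJ-03-123 and 167, 162 and 174 with YKL-06-102. DMSO replicate 2 overlapped the YKL-06-102 libraries, and the log2 fold change with YKL-06-102 was 0.15 ± 0.041, which passed. SREBF1 shares 556 bases of exon with RAI1 on the opposite strand, whose log2 fold changes against DMSO were -0.16, -0.091 and -0.018. RAI1 was higher with YKL-06-102 than with palbociclib by 0.14, and the part of shared reads was not tested. SREBF2, the gene of the SREBP that favours sterol synthesis, read 374, 395 and 368 CPM with DMSO, 363, 372 and 352 with palbociclib, 365, 372 and 369 with BSJ-03-123 and 381, 386 and 388 with YKL-06-102, with log2 fold changes of -0.066 ± 0.031, -0.040 ± 0.031 and 0.022 ± 0.031 that did not pass. SCAP, the escort itself, lay between 0.017 and 0.052 in the 3 comparisons, and INSIG2, the related retention protein, between -0.21 and -0.023. STARD4, a cytosolic sterol carrier, had DMSO libraries at 23.9, 17.8 and 23.3 CPM, with replicate 2 the lowest of the 12 libraries, and log2 fold changes of 0.037, -0.023 and 0.017.

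Over the 6 sensing genes, 1 rose with palbociclib and 1 with YKL-06-102, which is 16.7% of the list called in each, below the 33.3% and 36.9% of all tested genes. With BSJ-03-123 the edgeR test called 0, with 0 at an unadjusted p under 0.05, and DESeq2 and limma-voom also called 0. All 6 intervals lay within 1.25-fold with palbociclib and with BSJ-03-123, and 5 of 6 with YKL-06-102.

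SREBF2 held the 1 match to the core of the sterol regulatory element (TCACNCCAC, searched on both strands) among the promoters of the members. Windows of 250 bases before to 50 after a start were found in RefSeq (GRCh38.p14) for 34 of the 39 members, 47 windows in all; SQLE, ABCG1, FASN, FDFT1 and ACAT2 had none. This motif stood in the windows of 1 of 34 members, beside 1.39% of 27305 genes. The CCAAT box, whose letters CCAAT were searched on both strands and which binds NF-Y, stood in 25 of 34 (73.5%), beside 39.7% of genes. CACGTG, an E-box, stood in 6 of 34 (17.6%) beside 8.77%, an E2F motif written TTTNNCGC in 4 of 34 (11.8%) beside 8.23%, and an LXR element written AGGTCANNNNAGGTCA in 0 of 34 beside 0.0256%. These are matches of letters in short windows and no measure of binding. In the SREBF2 window, chr22:41832855-41833154 on the forward strand, capitals mark the sterol element core and a CCAAT box, read as ATTGG.
SREBF2: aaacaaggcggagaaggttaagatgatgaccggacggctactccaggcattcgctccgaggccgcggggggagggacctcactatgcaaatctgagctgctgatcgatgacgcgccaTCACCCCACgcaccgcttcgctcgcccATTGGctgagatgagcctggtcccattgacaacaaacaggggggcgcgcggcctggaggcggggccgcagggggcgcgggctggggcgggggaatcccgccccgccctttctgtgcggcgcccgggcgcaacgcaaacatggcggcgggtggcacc

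Of the 3 enzymes that supply and build fatty acids, FASN fell with palbociclib and no other change against DMSO passed the test. FASN read 1485, 1539.7 and 1429 CPM with DMSO, 1382, 1396 and 1376 with palbociclib, 1425, 1482 and 1544 with BSJ-03-123 and 1511, 1441 and 1518 with YKL-06-102. The palbociclib libraries lay below all DMSO libraries, the BSJ-03-123 and YKL-06-102 libraries overlapped them, and the log2 fold changes were -0.10 ± 0.034, -0.00091 ± 0.034 and 0.0053 ± 0.034, of which the first passed. ACACA, the acetyl-CoA carboxylase that makes malonyl-CoA, read 172, 173 and 181 CPM with DMSO, 179, 168 and 167 with palbociclib, 182, 186 and 181 with BSJ-03-123 and 172, 165 and 167 with YKL-06-102, and its values of -0.036 ± 0.034, 0.060 ± 0.034 and -0.061 ± 0.034 did not pass. ACLY, at 504 to 548 CPM in all 12 libraries, gave 0.012 ± 0.031, 0.047 ± 0.031 and 0.032 ± 0.031. For the 3 genes the 95% interval lay within 1.25-fold in every comparison with DMSO. With BSJ-03-123 and with YKL-06-102 the edgeR test called 0 of 3, with 0 at an unadjusted p under 0.05 and 0 by DESeq2 or limma-voom.

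The desaturases and elongases held FADS1, which had the largest fall of the 39 members with palbociclib and with BSJ-03-123. With palbociclib 5 of 7 fell (FADS1, FADS2, SCD, ELOVL1 and ELOVL5) and with BSJ-03-123 3 of 7 fell (FADS1, FADS2 and ELOVL5), beside 17.6% and 15.7% of all tested genes lower. DESeq2 did not keep the palbociclib call of ELOVL1 (DESeq2 adjusted p = 0.0642). With YKL-06-102 FADS2, FADS3 and SCD rose and ELOVL5 and ELOVL6 fell, beside 15.6% of tested genes higher and 21.3% lower. The median log2 fold change of the list was -0.17, -0.20 and 0.067 for palbociclib, BSJ-03-123 and YKL-06-102.

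FADS1 (ENSG00000149485, chromosome 11, 61799625 to 61829318, reverse strand, GENCODE 29 on GRCh38) is a front-end desaturase that makes highly unsaturated fatty acids such as arachidonic acid. It read 285, 285 and 293 CPM with DMSO, 184, 184 and 175 with palbociclib, 206, 203 and 203 with BSJ-03-123 and 301, 306 and 289.7 with YKL-06-102. Palbociclib gave the lowest libraries, BSJ-03-123 the next with no overlap, and the YKL-06-102 libraries overlapped those of DMSO. The log2 fold change was -0.67 ± 0.031 with palbociclib, a level 1.59-fold lower (edgeR adjusted p = 2.37e-16), and -0.49 ± 0.031 with BSJ-03-123 (edgeR adjusted p = 3.10e-13). With YKL-06-102 it was 0.055 ± 0.030, with a 95% interval of -0.0071 to 0.12. FADS2 (ENSG00000134824, chromosome 11, 61792980 to 61867354, forward strand) carries out the first desaturation of the same chain. It read 208, 223 and 197 CPM with DMSO, 166, 164 and 157 with palbociclib, 188, 179 and 181 with BSJ-03-123 and 251, 253 and 243 with YKL-06-102. No palbociclib or BSJ-03-123 library reached the DMSO range, and every YKL-06-102 library lay above it, with log2 fold changes of -0.37 ± 0.038, -0.20 ± 0.038 and 0.25 ± 0.037.

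Both genes lie on chromosome 11 on opposite strands and share 490 bases of exon, and FADS2 also shares 49 bases with FEN1 on its own strand. FEN1, a nuclease of DNA replication, had log2 fold changes of -1.49, -1.34 and -0.98. It was lower with palbociclib and BSJ-03-123, as FADS2 was, and lower with YKL-06-102, where FADS2 was higher. Between compounds FEN1 had the sign of FADS2. Its log2 difference was 0.15 for BSJ-03-123 against palbociclib, and 0.52 and 0.37 for YKL-06-102 against palbociclib and BSJ-03-123. The part of shared reads was not tested. Their start regions are shown because FADS1 had the largest fall and FADS2 fell beside it. The FADS1 window is chr11:61816954-61817253, reverse strand, and the FADS2 window is 1 of 2 in the RefSeq table, chr11:61816154-61816453, forward strand. The FADS1 start lies 599 bases from this FADS2 start and 800 bases from the other. Capitals mark a CCAAT box, which this FADS2 window holds a single time. The FADS1 window and the other FADS2 window hold none of the motifs searched.
FADS1: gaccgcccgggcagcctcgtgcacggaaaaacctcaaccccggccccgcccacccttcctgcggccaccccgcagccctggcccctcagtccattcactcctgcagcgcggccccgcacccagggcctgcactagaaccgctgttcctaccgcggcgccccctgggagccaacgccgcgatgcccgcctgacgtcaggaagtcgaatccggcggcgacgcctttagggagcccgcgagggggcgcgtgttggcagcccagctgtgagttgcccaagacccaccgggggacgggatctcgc
FADS2: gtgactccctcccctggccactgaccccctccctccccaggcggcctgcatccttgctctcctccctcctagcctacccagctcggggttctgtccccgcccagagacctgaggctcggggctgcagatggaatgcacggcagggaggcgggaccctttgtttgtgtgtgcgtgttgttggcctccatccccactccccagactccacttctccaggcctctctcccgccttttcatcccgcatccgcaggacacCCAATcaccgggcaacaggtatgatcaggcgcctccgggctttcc

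**Figure D3:**
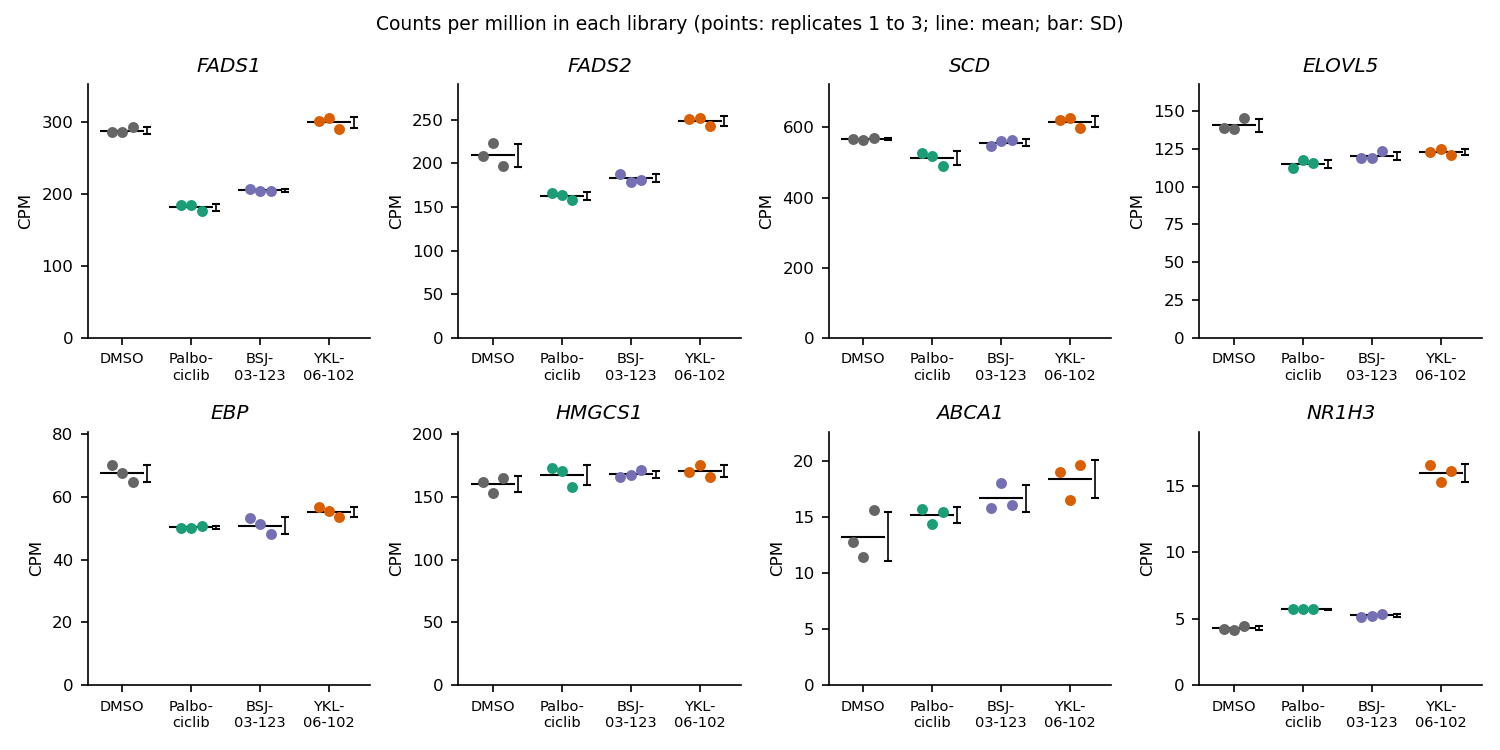
CPM in each of the 12 libraries for FADS1, FADS2, SCD, ELOVL5, EBP, HMGCS1, ABCA1 and NR1H3. Points are libraries, and each group of 3 has a line for the mean and a bar for the SD. FADS1 falls from 285 to 293 CPM with DMSO to 175 to 184 CPM with palbociclib, and NR1H3 stands at 15.3 to 16.6 CPM with YKL-06-102 against 4.16 to 4.45 CPM with DMSO.

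SCD, which puts the double bond into saturated acyl chains, read 567, 565 and 571 CPM with DMSO, 528, 518 and 489 with palbociclib, 547, 561 and 564 with BSJ-03-123 and 622, 628 and 599.7 with YKL-06-102. The palbociclib libraries lay below and the YKL-06-102 libraries above all DMSO libraries, whose own range was narrow. SCD fell by 0.15 ± 0.032 with palbociclib and rose by 0.12 ± 0.031 with YKL-06-102, and with BSJ-03-123 it was -0.026 ± 0.032, which did not pass. ELOVL5, which elongates polyunsaturated chains between the FADS steps, read 139, 138 and 146 CPM with DMSO, 112, 118 and 115 with palbociclib, 119, 119 and 124 with BSJ-03-123 and 123, 125 and 121 with YKL-06-102. Every treated library lay below the DMSO libraries, with log2 fold changes of -0.29 ± 0.034, -0.22 ± 0.035 and -0.19 ± 0.034. ELOVL1, an elongase of saturated very long chains, read 53.8, 54.0 and 47.4 CPM with DMSO, 47.4, 49.0 and 45.5 with palbociclib, 50.8, 47.8 and 46.5 with BSJ-03-123 and 54.4, 53.8 and 54.9 with YKL-06-102, and fell by 0.13 ± 0.050 with palbociclib. FADS3, the less studied gene of the FADS cluster, read 8.01, 8.55 and 7.98 CPM with DMSO, 8.49, 8.88 and 8.05 with palbociclib, 8.33, 7.90 and 7.17 with BSJ-03-123 and 9.66, 9.81 and 9.76 with YKL-06-102, and rose by 0.25 ± 0.084 with YKL-06-102. ELOVL6, which elongates palmitate and is a known target of SREBP, read 5.81, 6.29 and 5.16 CPM with DMSO, 4.83, 5.26 and 5.45 with palbociclib, 5.07, 4.79 and 5.05 with BSJ-03-123 and 4.26, 4.65 and 4.28 with YKL-06-102. Its YKL-06-102 libraries lay below all DMSO libraries, and the log2 fold change was -0.40 ± 0.11.

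Among the efflux and LXR genes, NR1H3 had the largest change of all 39 members. This gene of LXR-alpha (ENSG00000025434, chromosome 11, 47248300 to 47269032, forward strand) read 4.24, 4.16 and 4.45 CPM with DMSO, 5.69, 5.74 and 5.69 with palbociclib, 5.12, 5.22 and 5.38 with BSJ-03-123 and 16.6, 15.3 and 16.1 with YKL-06-102. The YKL-06-102 libraries lay far above all others, and the palbociclib and BSJ-03-123 libraries lay above DMSO by a small margin. The log2 fold changes were 0.42 ± 0.10, 0.29 ± 0.11 and 1.90 ± 0.086, the last a 3.74-fold rise (edgeR adjusted p = 1.52e-16). The call with BSJ-03-123 was marginal (edgeR adjusted p = 0.0468): it was lost on leaving out any 1 of the 6 libraries, at 0.27 to 0.31, and with DESeq2 and limma-voom. NR1H3 shares 189 bases of exon with ACP2 on the opposite strand, a gene with a mean count of 567 per library against 178 for NR1H3, and log2 fold changes of 0.15, -0.011 and 0.21. The summed myeloid markers were also highest with YKL-06-102, at 2447 to 2474 CPM against 1974 to 2009 CPM with DMSO. LYZ, SPI1 and CSF1R were higher there than with DMSO, but FLT3 averaged 387 CPM against 394 CPM with DMSO. ITGAM was highest with palbociclib. The part of these markers in the NR1H3 result was not tested.

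RefSeq gives 4 windows for NR1H3, and 1 of them is shown because of the size of this change, chr11:47257457-47257756 on the forward strand. Capitals mark a CCAAT box, read as ATTGG, and the other 3 windows hold none of the motifs searched.
NR1H3: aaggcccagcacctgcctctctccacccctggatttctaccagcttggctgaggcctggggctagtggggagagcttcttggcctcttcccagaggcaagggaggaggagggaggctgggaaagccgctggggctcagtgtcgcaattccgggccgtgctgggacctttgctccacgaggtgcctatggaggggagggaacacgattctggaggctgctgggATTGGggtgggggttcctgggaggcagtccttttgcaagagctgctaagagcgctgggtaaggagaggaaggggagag

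ABCA1, which exports cholesterol to lipid-poor apolipoproteins and is a textbook LXR target, read 12.8, 11.4 and 15.6 CPM with DMSO, 15.7, 14.4 and 15.4 with palbociclib, 15.9, 18.04 and 16.1 with BSJ-03-123 and 19.1, 16.5 and 19.7 with YKL-06-102. DMSO replicate 3 was the highest DMSO library and overlapped the palbociclib group. ABCA1 rose by 0.35 ± 0.092 with BSJ-03-123 and by 0.49 ± 0.088 with YKL-06-102, and with palbociclib it was 0.21 ± 0.092, which did not pass (edgeR adjusted p = 0.0825). MYLIP, another LXR target, read 51.6, 51.3 and 49.0 CPM with DMSO, 54.7, 52.1 and 51.5 with palbociclib, 52.8, 54.0 and 53.3 with BSJ-03-123 and 46.0, 47.9 and 46.7 with YKL-06-102. Its YKL-06-102 libraries lay below all others, and the log2 fold change against DMSO was -0.11 ± 0.043, a call (edgeR adjusted p = 0.0377) that 5 of the 6 leave-outs, DESeq2 and library totals did not keep. ABCG1, the other sterol exporter, read 0.890, 0.767 and 0.380 CPM with DMSO, 0.325, 1.02 and 1.06 with palbociclib, 1.10, 0.335 and 0.613 with BSJ-03-123 and 0.614, 0.597 and 0.453 with YKL-06-102. At these counts its groups overlapped throughout, and the 95% interval of its log2 fold change with YKL-06-102 ran from -1.16 to 0.54. NR1H2 read 104, 116 and 99.7 CPM with DMSO, 111, 115 and 112 with palbociclib, 109, 111 and 113 with BSJ-03-123 and 111, 108 and 117 with YKL-06-102, with log2 fold changes of 0.074 ± 0.044, 0.055 ± 0.044 and 0.065 ± 0.044 that did not pass. Over the 5 genes, 1 rose with palbociclib, 2 rose with BSJ-03-123, and 2 rose and 1 fell with YKL-06-102. The 1, 2 and 3 of 5 called stand beside 33.3%, 28.1% and 36.9% of all tested genes, and the first is a smaller share than that background.

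Some calls against DMSO rested on single libraries. Replicates are given by number with the log2 fold change that remained. With palbociclib, FDFT1 lost its call without DMSO 1 or 3 (0.079 and 0.054) or palbociclib 1 or 2 (0.072 and 0.077). INSIG1 lost its call without DMSO 1 (0.10) or palbociclib 3 (0.067). ELOVL1 lost its call without DMSO 1 or 2 (-0.11 and -0.10) or palbociclib 1 or 3 (-0.13 and -0.11). FASN lost its call without DMSO 2 (-0.075) or palbociclib 1 or 3 (-0.10 and -0.10). With BSJ-03-123, beside NR1H3, FDFT1 lost its call without DMSO 1 or 3 (0.10 and 0.072) or BSJ-03-123 1 (0.079). LSS lost its call without DMSO 1 or 3 (0.11 and 0.077) or BSJ-03-123 1 or 3 (0.11 and 0.078). ABCA1 lost its call without BSJ-03-123 2 (0.28). With YKL-06-102, NSDHL lost its call without DMSO 1 or 3 (0.10 and 0.089) or YKL-06-102 1 or 2 (0.12 and 0.13). FADS3 lost its call without DMSO 1 or 3 (0.23 and 0.23). MYLIP lost its call without DMSO 1 or 2 (-0.10 and -0.082) or YKL-06-102 1 or 2 or 3 (-0.082, -0.11 and -0.092). ELOVL6 lost its call without DMSO 2 (-0.30). FDPS lost its call without YKL-06-102 1 (-0.083). Other fits also ended some of these calls. With palbociclib, ELOVL1 was lost with DESeq2, library totals, no filter and 2 groups only. FASN was lost there with library totals and no filter, and FDFT1 with 2 groups only. With BSJ-03-123, FDFT1 and LSS were lost with 2 groups only. With YKL-06-102, FADS3 was lost with DESeq2 and FDPS with no filter.

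The design also allows the compounds to be compared directly at the same dose and time, in 3 pairs, with p-values adjusted over all tested genes of each pair. BSJ-03-123 and palbociclib differed in 1 of the 39 members, beside 0.155% of tested genes. That gene was FADS1, at 206, 203 and 203 CPM with BSJ-03-123 and 184, 184 and 175 CPM with palbociclib. The groups did not overlap, and BSJ-03-123 was higher by 0.18 ± 0.032 on the log2 scale, a 1.13-fold difference (edgeR adjusted p = 0.0123). Leaving out BSJ-03-123 replicate 1 or 2 or any palbociclib replicate took the value to 0.15 to 0.19 and ended the call, so 0 members differed in these 5 fits. At an unadjusted p under 0.05 edgeR gave 7 members, and the share of all tested genes at that threshold was not counted. DESeq2 called 3 members (FADS1, FADS2 and SCD) and limma-voom 1, beside 43 and 17 calls over all genes.

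FADS2 was higher with BSJ-03-123 by 0.17 ± 0.038 and SCD by 0.12 ± 0.032, with edgeR adjusted p = 0.0723 and 0.125. For these desaturases all 3 BSJ-03-123 libraries lay above all 3 palbociclib libraries. That was not particular to them, as FASN, ACACA, ELOVL5, SREBF1 and ABCA1, also not called, showed the same order. The share of all tested genes without overlap was not counted. For 36 of the 39 members the 95% interval of the difference lay within 1.25-fold either way, and for 38 within 1.5-fold, ABCG1 being the exception. Among them EBP differed by 0.015 with an interval of -0.079 to 0.11, FDFT1 by 0.019 with -0.045 to 0.083, and HMGCS1 by 0.0075 with -0.068 to 0.083. In the sterol synthesis list edgeR called 0 of 18 between these 2 compounds, with 1 at an unadjusted p under 0.05 (PMVK) and 0 by DESeq2 and limma-voom.

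YKL-06-102 gave higher levels than palbociclib for 19 members and lower levels for 3, which is 56.4% of members called beside 24.7% of tested genes (12.7% higher and 11.9% lower). Against BSJ-03-123 it was higher for 14 and lower for 2, 41.0% of members beside 20.1% of tested genes (10.4% higher and 9.74% lower). The median log2 difference of the members was 0.088 and 0.062, beside -0.0099 and -0.0052 over all tested genes. In both comparisons 13 members were higher with YKL-06-102: ACAT2, MVK, MVD, FDPS, FDFT1, SQLE, LSS and DHCR7 of sterol synthesis, SCD, FADS1, FADS2 and ELOVL1 of the desaturases and elongases, and NR1H3. MYLIP was the 1 member lower in both. The 2 comparisons share the YKL-06-102 libraries, so their calls are not independent. The share of all tested genes higher in both was not counted, so the 13 have no background beside them.

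**Figure D4:**
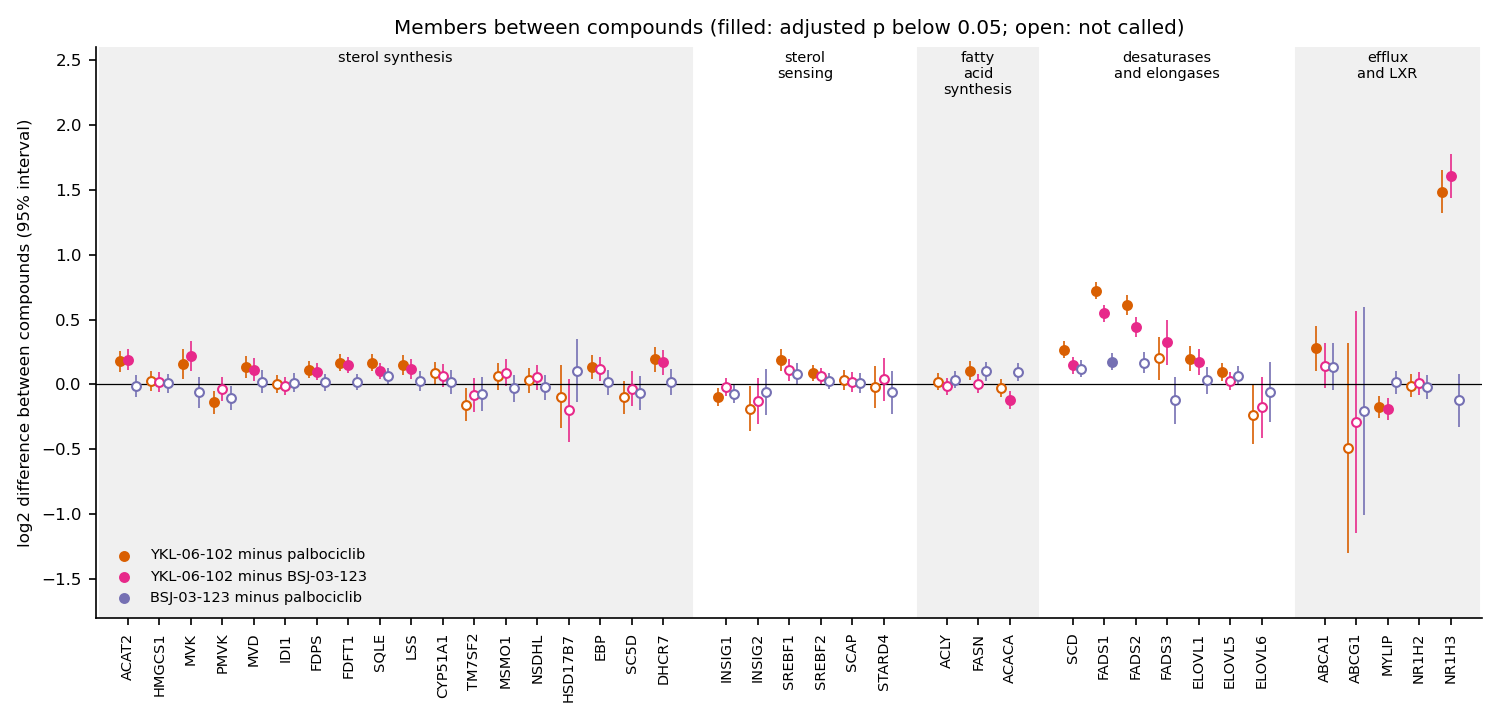
Log2 difference between compounds for the 39 members in the 3 pairs, with 95% intervals from the fit, grouped by role. Differences between BSJ-03-123 and palbociclib stay near 0 (the largest called is 0.18 for FADS1), while NR1H3 lies at 1.49 and 1.61 and FADS1 at 0.72 and 0.55 for YKL-06-102 against palbociclib and BSJ-03-123.

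The widest differences were in NR1H3, at 1.49 ± 0.079 and 1.61 ± 0.082 against palbociclib and BSJ-03-123, a 2.80-fold and 3.05-fold higher level. FADS1 followed at 0.72 ± 0.031 and 0.55 ± 0.031, or 1.65-fold and 1.46-fold, and FADS2 at 0.61 ± 0.038 and 0.44 ± 0.038. SCD differed by 0.27 ± 0.031 and 0.15 ± 0.031 and ELOVL1 by 0.20 ± 0.048 and 0.17 ± 0.049. Of the 7 desaturases and elongases 5 were higher in each comparison, beside 12.7% and 10.4% of all tested genes, the fifth being ELOVL5 against palbociclib at 0.10 ± 0.034 and FADS3 against BSJ-03-123 at 0.32 ± 0.085. The median of this list was 0.20 and 0.17. ELOVL6, in contrast, was at -0.23 ± 0.11 and -0.18 ± 0.11, which did not pass.

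Among sterol enzymes, 9 of 18 were higher and 1 lower with YKL-06-102 than with palbociclib, and 8 of 18 higher than with BSJ-03-123. Over all tested genes 12.7% were higher and 11.9% lower in the first comparison, and 10.4% were higher in the other. DHCR7 differed by 0.19 ± 0.047 and 0.17 ± 0.047, ACAT2 by 0.18 ± 0.039 and 0.19 ± 0.039, SQLE by 0.17 ± 0.032 and 0.10 ± 0.032 and FDFT1 by 0.17 ± 0.031 and 0.15 ± 0.031. MVK differed by 0.16 ± 0.056 and 0.22 ± 0.057, LSS by 0.15 ± 0.037 and 0.12 ± 0.037, MVD by 0.14 ± 0.041 and 0.11 ± 0.042 and FDPS by 0.11 ± 0.032 and 0.10 ± 0.032. For ACAT2 and FDPS, which the other compounds lowered, these differences are toward the DMSO level, and for the others YKL-06-102 lay above DMSO as well. EBP was 0.13 ± 0.045 higher with YKL-06-102 than with palbociclib, while PMVK was at -0.14 ± 0.044. All 18 intervals lay within 1.5-fold in both comparisons.

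Of the sensing genes, SREBF1 was higher with YKL-06-102 than with palbociclib by 0.19 ± 0.041 and SREBF2 by 0.088 ± 0.031, and INSIG1 was at -0.10 ± 0.034, which passed as lower. Against BSJ-03-123 edgeR called 0 of the 6, with 1 at an unadjusted p under 0.05 (SREBF1, at 0.11 ± 0.041) and 0 by DESeq2 and limma-voom. FASN was higher than with palbociclib by 0.11 ± 0.034, and ACACA was lower than with BSJ-03-123, at -0.12 ± 0.033. ABCA1 was higher than with palbociclib by 0.28 ± 0.085, and the difference from BSJ-03-123 was 0.14 ± 0.085, with an interval of -0.029 to 0.32 that spans 0. MYLIP was at -0.17 ± 0.042 and -0.19 ± 0.042, lower in both.

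Several of these calls were lost without 1 library. For YKL-06-102 against palbociclib, MVK lost its call without YKL-06-102 1 or 3 (0.15 and 0.18) or palbociclib 3 (0.14). PMVK lost its call without YKL-06-102 1 or 2 or 3 (-0.14, -0.13 and -0.084) or palbociclib 1 or 2 or 3 (-0.13, -0.11 and -0.13). EBP lost its call without YKL-06-102 1 (0.14). INSIG1 lost its call without YKL-06-102 1 or 2 or 3 (-0.088, -0.062 and -0.071) or palbociclib 1 or 2 or 3 (-0.10, -0.10 and -0.046). ELOVL5 lost its call without YKL-06-102 2 (0.11) or palbociclib 1 or 3 (0.10 and 0.10). ABCA1 lost its call without YKL-06-102 3 (0.25). MVD lost its call without palbociclib 1 (0.12). MYLIP lost its call without palbociclib 1 (-0.12). SREBF2 lost its call without palbociclib 3 (0.069). FASN lost its call without palbociclib 3 (0.10). For YKL-06-102 against BSJ-03-123, MVD lost its call without BSJ-03-123 1 or 2 or 3 (0.13, 0.12 and 0.13) or YKL-06-102 1 or 3 (0.11 and 0.14). ACACA lost its call without BSJ-03-123 1 or 2 (-0.10 and -0.10) or YKL-06-102 2 or 3 (-0.084 and -0.094). FDPS lost its call without BSJ-03-123 2 (0.083). LSS lost its call without BSJ-03-123 2 (0.10). SQLE lost its call without BSJ-03-123 3 (0.076). ELOVL1 lost its call without BSJ-03-123 3 (0.15). Other fits also ended some of these calls. Against palbociclib, INSIG1 was lost with DESeq2, other size factors and no filter, and PMVK with DESeq2 and no filter. ELOVL5 was lost there with library totals and no filter, and SREBF2 with library totals. Against BSJ-03-123, MVD was lost with DESeq2, limma-voom, library totals and the replicate block, and ACACA with no filter.

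A further 63 genes of the same pathways were listed from general knowledge, and 52 were tested. Earlier results of these data were known when the list was made, so its shares called are no independent test. With palbociclib 12 rose and 11 fell (44.2% called), with BSJ-03-123 10 and 11 (40.4%), and with YKL-06-102 14 and 16 (57.7%), beside 33.3%, 28.1% and 36.9% of all tested genes. TMEM97, the sigma receptor that acts with the sterol transporter of lysosomes, fell by 0.58 ± 0.041, 0.58 ± 0.041 and 0.46 ± 0.040 on the log2 scale with the 3 compounds. HACD3, a dehydratase of very long chain elongation, fell by 0.48 ± 0.031, 0.46 ± 0.031 and 0.38 ± 0.031. PGRMC1, a heme protein that binds sterol-synthesis cytochromes, fell by 0.46 ± 0.051 with palbociclib, 0.45 ± 0.052 with BSJ-03-123 and 0.35 ± 0.050 with YKL-06-102.

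Between compounds, 12 of the 52 were higher and 7 lower with YKL-06-102 than with palbociclib (36.5%), and 7 higher and 3 lower than with BSJ-03-123 (19.2%), beside 24.7% and 20.1% of all tested genes. Between BSJ-03-123 and palbociclib edgeR called 0 of 52, with 8 at an unadjusted p under 0.05, and DESeq2 and limma-voom called 0. The share of all tested genes at that unadjusted threshold was not counted. Of 14 tested LXR partners and targets, 4 rose with palbociclib, 2 rose with BSJ-03-123, and 5 rose and 3 fell with YKL-06-102. These are 28.6%, 14.3% and 57.1% of that list, beside 33.3%, 28.1% and 36.9% of all tested genes. PPARD, a lipid-sensing nuclear receptor, rose by 0.68 ± 0.057 with YKL-06-102, and was higher there than with palbociclib by 0.50 ± 0.055 and than with BSJ-03-123 by 0.38 ± 0.055. ACSL1, an acyl-CoA synthetase, was lower with YKL-06-102 than with palbociclib and BSJ-03-123, at -0.22 ± 0.032 and -0.20 ± 0.032.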

How the data were processed

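Polyadenylated RNA of MV4-11 cells was sequenced in 12 libraries, prepared per the labels with TruSeq Stranded mRNA reagents. The authors deposited unnormalized read counts for each Ensembl gene. The submitters' processing notes list the tools Trimmomatic 0.36, STAR 2.5.2b and HTSeq and the build hg38. Strand setting and annotation release: not given in the sources used here. Gene IDs were named with GENCODE 29 (57447 of 58051).

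CPM were computed with TMM factors. All 12 libraries were fitted together in edgeR 4.0.16 (R 4.3.3) with the quasi-likelihood test, 2-sided, after filterByExpr (minimum count 10, minimum total 15), which kept 14214 genes with 99.9% of counts, and 6 contrasts were adjusted by Benjamini-Hochberg at 0.05. Standard errors and 95% intervals come from that fit (8 residual degrees of freedom, common biological coefficient of variation 3.08%). Library totals of 18764307 to 25539858 counts set the precision. Alternatives were DESeq2 1.42.0, limma-voom (limma 3.58.1), other size factors, library totals, no filter, 2 groups only, a replicate block and leaving out each library. On simulated counts for palbociclib against DMSO, the test called 80% of 50 genes set to a 1.25-fold change and 100% at 1.5-fold, among 13951 tested genes, and unchanged genes made up 5.00% of calls. For YKL-06-102 against DMSO the share at 1.25-fold was 78% among 13947 genes. The changed genes were few and left out those at low levels, and no simulated library stood apart as DMSO replicate 2 did. The real comparisons called 33.3% and 36.9% of tested genes, so these rates may not hold for them, nor for ABCG1.

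The members and lists were chosen with earlier results of these data known. Every member is named. Values for each library were given for the 3 largest called changes against DMSO, for members called between compounds, for the highest of each role list per length, and for some others. Of the 63 further pathway genes, the 3 called with the smallest p in each contrast were named, apart from 1 that is not reported here. Marker genes of other cell types were checked in every library.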

Additional observations from a re-analysis of the deposited data

How the results depend on the processing

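No direction reversed for any called member under any alternative tried. The count of members called for BSJ-03-123 against palbociclib, 1, became 3 with DESeq2, 2 with no filter, 3 with 2 groups only and 2 with the replicate block; FADS2 was gained in each of these, and SCD with DESeq2 and with 2 groups only. Over all genes the same comparison gave 22 calls, 43 with DESeq2, 64 with no filter, 64 with 2 groups only, 17 with limma-voom and 26 with the block. Leaving out 1 library gave 0 to 1 members for this pair, 10 to 16 for palbociclib against DMSO (13 with all libraries), 9 to 18 for BSJ-03-123 against DMSO (12), 18 to 22 for YKL-06-102 against DMSO (20), 16 to 20 for YKL-06-102 against palbociclib (22) and 12 to 16 for YKL-06-102 against BSJ-03-123 (16). The 18 came without DMSO replicate 2. Library totals gave 18, 18 and 22 members against DMSO, where the median of all genes was 0.062, 0.051 and 0.021, against 0.014, 0.0075 and -0.017 with TMM factors. Of the member results with a library left out, 1294 kept their side of the threshold, 82 lost a call and 28 gained one.

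Gained calls against DMSO were, for palbociclib, IDI1 without DMSO 2 (-0.11), LSS without DMSO 2 (0.11), NSDHL without DMSO 2 (0.15), DHCR7 without DMSO 2 (0.14), NR1H2 without DMSO 2 (0.14), SREBF2 without DMSO 3 (-0.092), ABCA1 without DMSO 3 (0.33). For BSJ-03-123 they were MVD without DMSO 2 (0.12), IDI1 without DMSO 2 (-0.10), NSDHL without DMSO 2 (0.12), DHCR7 without DMSO 2 (0.16), SREBF1 without DMSO 2 (0.11), ACLY without DMSO 2 (0.076), NR1H2 without DMSO 2 (0.12), ELOVL1 without DMSO 3 (-0.16). For YKL-06-102 they were MSMO1 without DMSO 1 (0.15), SREBF2 without DMSO 2 (0.075), SCAP without DMSO 2 (0.13), ACLY without DMSO 2 (0.083), NR1H2 without DMSO 2 (0.16), ACAT2 without DMSO 3 (-0.11), HMGCS1 without DMSO 3 (0.11) or YKL-06-102 1 or 3 (0.11 and 0.13), FADS1 without YKL-06-102 3 (0.10). Against BSJ-03-123, YKL-06-102 gained EBP without BSJ-03-123 1 (0.18) or YKL-06-102 3 (0.16), SREBF1 without YKL-06-102 2 (0.16).

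The labels give same-numbered replicates nothing in common, and not every correlation of a same-numbered pair was over 0.1, so the numbers were not taken to pair the samples. The correlations of the deviations from the group means ran from -0.16 to 0.063 for palbociclib and DMSO and from 0.086 to 0.23 for BSJ-03-123 and DMSO, where 3 of 3 libraries correlated best with their own number. With the replicate block the counts of members called were 13, 11 and 20 against DMSO for palbociclib, BSJ-03-123 and YKL-06-102, 2 for BSJ-03-123 against palbociclib, 22 for YKL-06-102 against palbociclib and 15 for YKL-06-102 against BSJ-03-123. The block ended 2 member calls, NR1H3 with BSJ-03-123 against DMSO (0.29, edgeR adjusted p = 0.0512) and MVD with YKL-06-102 against BSJ-03-123 (0.12, edgeR adjusted p = 0.0601), and gained FADS2 with BSJ-03-123 against palbociclib (0.17, edgeR adjusted p = 0.0403). Depth limits ABCG1, with 7 to 23 counts per library; changes under 1.25-fold were not all detectable for other members.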
